A study of Mus musculus with 12 samples.

Results

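Ctxn1, Fam131a and Plcxd2 are 3 of the 35129 gene entries whose fragments were counted in cortical neurons of mice, and they were chosen by their counts in the saline libraries, which were higher in Thy1- than in Sst-neurons. Sst-neurons were somatostatin interneurons from GIN mice on the FVB background, in which a Gad-driven transgene marks a subset of these cells with green fluorescent protein, and Thy1-neurons were layer V pyramidal neurons from YFPH mice on the B6 background, in which a Thy1-driven transgene gives yellow fluorescent protein. All mice were male, weighed 20 g and were 5 to 7 weeks old, and each carried a subcutaneous mini pump for 14 days that released either nicotine hydrogen tartrate at 48 mg/kg/d (groups Sst+Nic and Thy1+Nic) or saline (groups Sst and Thy1). Fluorescent cells were collected by hand in tubes of 10, and their cDNA was amplified before sequencing. The design had 12 libraries in 4 groups of 3, and the values below come from 10 of them: all 3 Sst and all 3 Thy1+Nic libraries, with replicates 2 and 3 of Sst+Nic and of Thy1. The first replicates of the last pair of groups were not analysed here. Strain and transgenic line changed together with the cell type, so that they cannot be told apart from it, and each line marks only part of its cell class.

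Sst interneurons inhibit the dendrites of pyramidal neurons, whereas layer V pyramidal neurons are the excitatory cells that send cortical output to subcortical targets. Nicotine acts on nicotinic acetylcholine receptors, cation channels of the plasma membrane. Ctxn1 encodes cortexin 1, a small membrane protein of cortical neurons. Plcxd2 encodes a protein with the X domain of phosphatidylinositol-specific phospholipase C, the enzyme class that cleaves inositol phospholipids, and Fam131a encodes a member of a small protein family without a well-established function.

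The total per library lay between 2915738 and 4878326 fragments. CPM stands for fragments of an entry per 1000000 fragments of the library's total. The table can hold only part of the reads of most of its entries. CPM values and shares below therefore refer to the fragments in the table and not to all reads of a library. An entry is called position-checked where it lies in a checked stretch of a chromosome. There the table held the study's own group values for the genes compared to within 0.3 to 3 times. The values compared were those of Sst and Thy1+Nic alone, so that Sst+Nic and Thy1 were not checked. The rule was met by 891 nuclear entries and the 13 mitochondrially encoded genes, and all 3 genes are among them. Most entries tested below are not position-checked. Shares over all entries and adjusted p-values therefore rest mainly on entries that can be incomplete. The rule is loose: on chromosome 16, 16 of the 38 values compared were within 1% of the study's value. The 3 genes were compared in Sst alone, where this held for Ctxn1 and Plcxd2 but not for Fam131a. The interneuron markers Sst, Sox1 and Grik1, 3 position-checked members of a list of 9, summed to between 54118 and 126234 CPM in the Sst and Sst+Nic libraries. Their sum was at most 62.5 CPM in the Thy1+Nic libraries and was 1.15 and 3802 CPM in the Thy1 libraries, the higher value in replicate 3, where the Sst entry itself had 3795 CPM. The mitochondrially encoded genes took 21.2% to 22.1% of the table's fragments in Sst and 16.3% and 19.8% in Sst+Nic, which did not overlap. They took 31.7% and 35.7% in Thy1 and 31.4% to 38.5% in Thy1+Nic.

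All 3 genes lie in the GRCm38 genome on position-checked stretches of chromosomes 8 and 16. Ctxn1 is at chr8:4257660-4259274 on the minus strand, with 1 transcript in the GENCODE M21 annotation and 1212 exonic bases. Fam131a is at chr16:20693241-20703048 on the plus strand, with 5 transcripts and 2899 exonic bases, of which 85 are shared with exons of Clcn2 on the opposite strand. Since the library kit does not mark the strand, fragments from those bases cannot be assigned to either gene. Plcxd2 is at chr16:45959263-46010218 on the minus strand, with 1 transcript and 7140 exonic bases.

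The promoters are shown because the 3 genes share their difference between the cell types, and each runs from 250 bases before to 50 bases after a transcript start in RefSeq (GRCm38.p6), 5′ to 3′ on the strand of the gene. The sequences are from chr8:4259225-4259524 (minus) for Ctxn1, chr16:20694807-20695106 (plus) for Fam131a and chr16:46010364-46010663 (minus) for Plcxd2. Capitals mark GGGCGG, the GC box bound by Sp factors, and CCAAT, read on both strands.
Ctxn1: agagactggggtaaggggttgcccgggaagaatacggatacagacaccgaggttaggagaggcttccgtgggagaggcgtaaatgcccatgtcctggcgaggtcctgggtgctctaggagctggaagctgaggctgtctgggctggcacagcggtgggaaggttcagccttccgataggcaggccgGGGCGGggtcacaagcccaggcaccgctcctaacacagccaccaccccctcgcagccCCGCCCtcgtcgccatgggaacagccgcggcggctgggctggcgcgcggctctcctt
Fam131a: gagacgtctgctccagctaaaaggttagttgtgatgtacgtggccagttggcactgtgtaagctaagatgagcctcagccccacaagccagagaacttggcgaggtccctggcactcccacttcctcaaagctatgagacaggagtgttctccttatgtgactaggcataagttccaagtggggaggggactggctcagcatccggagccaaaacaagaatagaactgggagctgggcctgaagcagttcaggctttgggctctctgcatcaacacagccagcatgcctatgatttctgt
Plcxd2: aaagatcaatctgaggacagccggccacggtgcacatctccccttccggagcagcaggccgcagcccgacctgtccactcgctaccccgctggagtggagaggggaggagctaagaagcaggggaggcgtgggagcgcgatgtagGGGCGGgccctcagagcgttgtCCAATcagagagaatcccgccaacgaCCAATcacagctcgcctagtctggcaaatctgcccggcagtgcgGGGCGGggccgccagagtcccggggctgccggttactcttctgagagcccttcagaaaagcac
The promoters of Ctxn1 and Plcxd2 each held 2 GC boxes, and that of Plcxd2 also held 2 CCAAT boxes, whereas neither motif was present in the Fam131a window. Of 32851 promoters of the same length, 35.7% held the GC box and 37.4% the CCAAT box. The TATA box (TATAAA) was searched on both strands as well, and so were the cyclic AMP response element (TGACGTCA) and the E-box CACGTG. None of the 3 windows held any of these, against 13.6%, 1.79% and 7.15% of all promoters. The GC content was 66.3% for Ctxn1, 64.3% for Plcxd2 and 52.7% for Fam131a, against a median of 52.7% over all promoters. The window of Fam131a lies inside the gene, which begins further upstream in both RefSeq and GENCODE, so that it covers 1 of several annotated starts.

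Ctxn1 had the widest range of the 3 genes. Its level was 72.8, 37.2 and 106 CPM in Sst replicates 1, 2 and 3, and 142 and 249 CPM in Sst+Nic replicates 2 and 3. It was 1190 and 1545 CPM in Thy1 replicates 2 and 3, and 1898, 1350 and 544 CPM in Thy1+Nic replicates 1, 2 and 3. The lowest library of Thy1-neurons, Thy1+Nic replicate 3, was above the highest of Sst-neurons, Sst+Nic replicate 3. The means were 72.0 ± 34.3 CPM in Sst (SD, n = 3), 196 ± 75.9 in Sst+Nic (n = 2), 1368 ± 251 in Thy1 (n = 2) and 1264 ± 681 in Thy1+Nic (n = 3).

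Fam131a varied less within each group than Ctxn1 did. Its level was 118, 116 and 130 CPM in Sst replicates 1, 2 and 3, and 174 and 219 CPM in Sst+Nic replicates 2 and 3. It was 887 and 966 CPM in Thy1 replicates 2 and 3, and 1044, 1007 and 923 CPM in Thy1+Nic replicates 1, 2 and 3. The libraries of the Thy1 and Thy1+Nic groups overlapped, whereas both Sst+Nic libraries were above the 3 Sst libraries on this scale. The means were 121 ± 7.72 CPM in Sst (SD, n = 3), 196 ± 31.9 in Sst+Nic (n = 2), 926 ± 56.0 in Thy1 (n = 2) and 991 ± 61.7 in Thy1+Nic (n = 3).

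Plcxd2 was lower in the nicotine libraries of both cell types. Its level was 185, 155 and 150 CPM in Sst replicates 1, 2 and 3, and 103 and 86.1 CPM in Sst+Nic replicates 2 and 3. It was 808 and 725 CPM in Thy1 replicates 2 and 3, and 345, 640 and 507 CPM in Thy1+Nic replicates 1, 2 and 3. In neither cell type did the nicotine and saline libraries overlap on this scale. On CPM normalized by TMM, as in the fits, the nearest libraries of Thy1-neurons were 809 in Thy1+Nic and 811 in Thy1. That gap was within their counting error. Counted on TMM-normalized CPM, 7.92% of all entries tested were lower without overlap in Sst+Nic and 11.3% in Thy1+Nic. The means were 163 ± 19.2 CPM in Sst (SD, n = 3), 94.3 ± 11.6 in Sst+Nic (n = 2), 767 ± 58.9 in Thy1 (n = 2) and 497 ± 147 in Thy1+Nic (n = 3).

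The 95% Wilson interval of a level reached from 2.41% to 16.3% of the level to either side for Ctxn1, and at most 9.22% for Fam131a and 11.4% for Plcxd2. These intervals cover counting error only, and libraries of 1 group could lie further apart, as they did for Ctxn1 in each of the 4 groups. In counts pooled over cells, fewer cells of a type and less RNA per cell cannot be told apart.

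**Figure D1:**
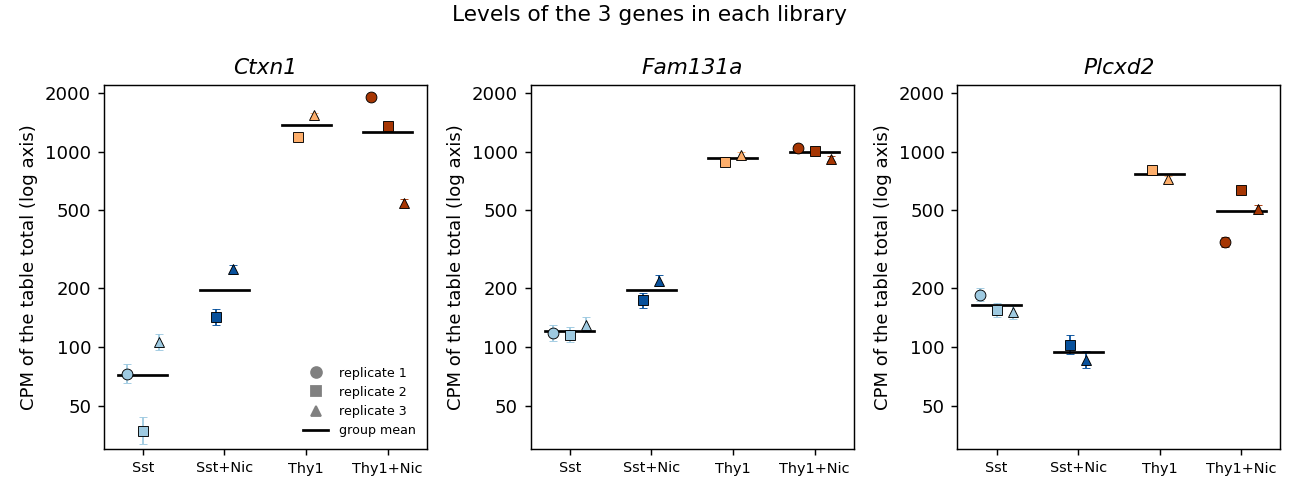
CPM (log axis) of Ctxn1, Fam131a and Plcxd2 in each of the 10 libraries by group, with the 95% Wilson interval as a bar on each point, the replicate as its shape and the group mean as a line. For each gene all Thy1 and Thy1+Nic libraries lie above all Sst and Sst+Nic libraries, and Plcxd2 lies lower in the nicotine libraries of both cell types, with 94.3 CPM in Sst+Nic against 163 in Sst.

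Divided by exonic length, Ctxn1 had the highest level of the 3 genes in Thy1-neurons, with 1129 ± 207 CPM per kilobase in Thy1 (SD, n = 2), followed by Fam131a with 320 ± 19.3 and Plcxd2 with 107 ± 8.25. The libraries of neighbouring genes in this order did not overlap in Thy1, nor in Thy1+Nic, where Ctxn1 lay between 449 and 1566 CPM per kilobase and Fam131a between 318 and 360. In Sst, Ctxn1 (30.7 to 87.3 CPM per kilobase) overlapped Fam131a (39.9 to 44.8), and Plcxd2 was below both (21.1 to 26.0). Ranked among the 891 position-checked nuclear entries of a library, which needs no scaling between libraries, Ctxn1 stood between place 11 and 40 from the top in libraries of Thy1-neurons and between 94 and 285 in those of Sst-neurons. Fam131a stood between 21 and 24 in Thy1-neurons and between 108 and 178 in Sst-neurons. Plcxd2 stood at 25 and 29 in Thy1 but between 31 and 60 in Thy1+Nic, and between 126 and 141 in Sst but at 207 and 215 in Sst+Nic.

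Without nicotine, the ratio of the Thy1 to the Sst mean was 19.0 for Ctxn1, 7.66 for Fam131a and 4.69 for Plcxd2. This is the contrast from which the genes were picked, and the ratios are a description without a test. Of the 6350 entries tested in it, 1.72% were called, which required an absolute log2 fold change above 1 with an adjusted p under 0.05. On TMM-normalized CPM the ratios were 21.9, 8.60 and 5.27. With the mitochondrially encoded genes left out of the total they were 22.6, 9.07 and 5.54. Per 1000000 uniquely mapped reads of a library in place of the table's total, the ratios were 18.3, 7.26 and 4.47, and the mean level of Ctxn1 was 8.64 in Sst and 158 in Thy1. The same contrast also served to choose Bcl6, a transcriptional repressor of cortical neurons, Rin1, a Ras effector of forebrain neurons, and Dlg1, a synaptic scaffold protein, whose values are likewise a description. Bcl6 had 8.70, 5.87 and 5.13 CPM in Sst and 175 and 103 CPM in Thy1. Rin1 had 0.995, 1.02 and 0.270 CPM in Sst and 152 and 60.4 CPM in Thy1.

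The comparison of the cell types after nicotine rests on libraries outside the contrast by which the genes were picked, but the genes were chosen with earlier results of all libraries known, so that its independence of the choice is not shown. Fam131a and Plcxd2 were significantly higher in Thy1+Nic than in Sst+Nic, whereas Ctxn1 did not pass the test. Of 6509 entries tested, 18 were called higher in Thy1+Nic (0.277%), and 2 of the 3 genes were among them. Among the 517 position-checked entries tested, to which all 3 genes belong, 5 were called higher (0.967%). The log2 fold change was 2.83 (SE 0.35) for Fam131a, with an adjusted p = 0.0326 in edgeR's quasi-likelihood test, and 2.92 (SE 0.41) for Plcxd2, with an adjusted p = 0.0339. For Ctxn1 it was 3.20 (SE 0.66, adjusted p = 0.0979). The 3 Thy1+Nic libraries were above both Sst+Nic libraries for each gene, as for 14.7% of all entries tested and 24.8% of the position-checked ones. A two-sided exact permutation test of the log2(CPM + 1) values gave p = 0.1 for Fam131a and for Plcxd2, the smallest that 3 libraries against 2 allow, and p = 0.2 for Ctxn1.

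These calls depended on single libraries and on the setting. Plcxd2 was not called without any 1 of the 5 libraries, at an adjusted p between 0.0539 and 0.121. Fam131a was called without Sst+Nic replicate 3 (adjusted p = 0.0190), but without Sst+Nic replicate 2 or Thy1+Nic replicate 1, 2 or 3 its adjusted p was 0.101, 0.114, 0.0665 and 0.0646. With library sizes from the table totals Plcxd2 was not called (adjusted p = 0.0556), and with the replicate number as a block neither Plcxd2 (adjusted p = 0.0880) nor Fam131a (adjusted p = 0.111) was. Ctxn1 was called by DESeq2 (adjusted p = 2.07e-06) and with all libraries in 1 fit (adjusted p = 0.0237).

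Of the list of 17 pyramidal neuron genes, 4 were position-checked. In Sst+Nic replicates 2 and 3, Bcl6 had 6 and 23 counts, Rin1 had 3 and 15 and Rtn4r had 0 and 17, so that these 3 passed the filter on low counts through the Thy1+Nic libraries, where they were high, and no test of them is given. Rtn4r is the Nogo receptor. The remaining gene, Gap43, a growth cone protein, had a log2 fold change of 1.61 (SE 0.28, adjusted p = 0.0628). The summed level of the 4 genes, most of it from Gap43, was between 2200 and 2844 CPM in Sst and Sst+Nic and between 4272 and 6135 CPM in Thy1 and Thy1+Nic. Rtn4r had 0 counts in the 3 Sst libraries, which allows at most 0.810 CPM, whereas Ctxn1, Fam131a and Plcxd2 had at least 37.2 CPM in each of them.

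In Sst-neurons, nicotine left no entry called, the 3 genes included. Plcxd2 was lower and Ctxn1 and Fam131a were higher in both Sst+Nic libraries than in the 3 Sst libraries. On TMM-normalized CPM, the highest Sst and lowest Sst+Nic libraries were 99.9 and 105 for Ctxn1 and 123 and 129 for Fam131a. Both gaps were within counting error. For Plcxd2 the lowest Sst library was 142 and the highest Sst+Nic library 76.9. Of 6689 entries tested, 0 were called (0%) by edgeR, with 280 (4.19%) at an unadjusted p under 0.05 and 19 called by DESeq2. The log2 fold change of Plcxd2 was -1.01 (SE 0.30, edgeR, adjusted p = 1.00). That of Ctxn1 was 1.29 (SE 0.50, edgeR, adjusted p = 1.00), and that of Fam131a was 0.49 (SE 0.32, adjusted p = 1.00). Of all entries tested, 12.7% were higher without overlap in Sst+Nic and 7.92% were lower, and of the position-checked ones 7.39% were higher and 10.6% lower. With the mitochondrially encoded genes left out, whose share was lower in Sst+Nic, the values were 1.28 for Ctxn1, 0.49 for Fam131a and -1.01 for Plcxd2. The saline libraries in this comparison, and in each comparison of nicotine below, are those that served in the choice of the genes. Fold changes and p-values with nicotine are therefore not independent of that choice.

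Of the 2 Sst+Nic libraries, replicate 3 had the higher levels of Ctxn1 and Fam131a. Without it, their log2 fold changes with nicotine were 0.63 and 0.14, and that of Plcxd2 was -1.04. In this library, pyramidal neuron genes also had counts: Rtn4r was at 3.48 CPM against 0 counts in the other 4 libraries of Sst-neurons, and Rin1 was at 3.07 CPM against at most 1.03. Gap43 and Bcl6, at 2289 and 4.71 CPM, were within the range of the other libraries of Sst-neurons. The endothelial markers Cldn5, Jam2 and Adamts1, 3 position-checked members of a list of 5, summed to 175 CPM in replicate 3 and 17.8 CPM in replicate 2 of Sst+Nic, against 22.7 to 93.9 CPM in Sst, and 159 CPM of the sum in replicate 3 came from Adamts1. Cldn5 itself was at 13.1 CPM in replicate 3 and at 0 counts in replicate 2 of Sst+Nic, while it was at 35.7 CPM in Sst replicate 2 and at 0 counts in Sst replicates 1 and 3. The microglial and immune markers Cd86, Hcls1 and Cd200r1, 3 of a list of 5, summed to at most 5.12 CPM in Sst+Nic and at most 52.9 CPM in Sst. None of the listed oligodendrocyte, astrocyte and red blood cell markers was position-checked. The part of other cells in the levels of Ctxn1 and Fam131a was not tested.

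In Thy1-neurons, none of the 3 genes was called after nicotine, and only Plcxd2 had libraries that did not overlap between Thy1 and Thy1+Nic. On TMM-normalized CPM its nearest libraries were 811 in Thy1 and 809 in Thy1+Nic, a gap within their counting error. Of 6048 entries tested, 0 were called (0%) by edgeR, with 264 (4.37%) at an unadjusted p under 0.05 and 14 called by DESeq2. The log2 fold change of Plcxd2 was -0.51 (SE 0.33, edgeR, adjusted p = 1.00). It was 0.21 (SE 0.26, adjusted p = 1.00) for Fam131a and 0.02 (SE 0.51, adjusted p = 1.00) for Ctxn1, for which Thy1+Nic held both the highest and the lowest library of Thy1-neurons. Of all entries tested, 11.3% were lower without overlap in Thy1+Nic, as were 10.6% of the position-checked ones. Without Thy1+Nic replicate 1, the lowest library for Plcxd2, its log2 fold change was -0.31, and without Thy1+Nic replicate 2, the highest of that group, it was -0.80. In Thy1+Nic replicate 1, markers of other cells also had counts: Cldn5 was at 12.1 CPM, Cd86 at 7.20 CPM and Cd200r1 at 6.62 CPM, against at most 0.275 CPM for any of them in the Thy1 libraries. Cldn5 was also at 7.36 CPM in Thy1+Nic replicate 3 and at 0 counts in replicate 2. The 3 endothelial markers summed to between 30.6 and 119 CPM in Thy1+Nic, with the highest sum in replicate 2 from Adamts1 alone, against 7.41 and 33.2 CPM in Thy1. The 3 microglial and immune markers summed to 16.1 CPM in Thy1+Nic replicate 1, had 0 counts in replicates 2 and 3, and reached at most 0.275 CPM in Thy1. The part of other cells in the level of Plcxd2 was not tested.

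The difference between the nicotine effects in Sst- and Thy1-neurons was fitted as an interaction over all 10 libraries. It subtracts the saline contrast that chose the genes, and their values are therefore a description without a test. The log2 value was 1.25 (SE 0.74) for Ctxn1, 0.27 (SE 0.38) for Fam131a and -0.53 (SE 0.43) for Plcxd2. Leaving out any 1 library gave values between 0.65 and 1.70 for Ctxn1, the lowest without Sst+Nic replicate 3. For Plcxd2 they lay between -0.72 and -0.19, the value nearest to 0 without Thy1+Nic replicate 2, and for Fam131a between -0.034 and 0.54. Of 8242 entries, 0 were called by edgeR, with 604 (7.33%) at an unadjusted p under 0.05 and 11 called by DESeq2.

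Plcxd2 was lower after nicotine without overlap in both cell types, though in Thy1-neurons the gap on TMM-normalized CPM was within counting error. The same pattern held for 33 of the 5105 entries tested in both (0.646%) and 2 of 462 position-checked ones (0.433%). An additive fit of cell type and nicotine over all 10 libraries was chosen after these values had been seen and uses the same saline libraries, so that it is given without a test. In it the log2 fold change with nicotine was -0.75 (SE 0.23) for Plcxd2, 0.66 (SE 0.40) for Ctxn1 and 0.36 (SE 0.20) for Fam131a. Leaving out any 1 library kept the value of Plcxd2 between -0.94 and -0.67. Ctxn1 then lay between 0.26 and 0.91 and Fam131a between 0.18 and 0.45, both lowest without Sst+Nic replicate 3, and limma voom gave 0.04 for Ctxn1 and 0.27 for Fam131a.

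**Figure D2:**
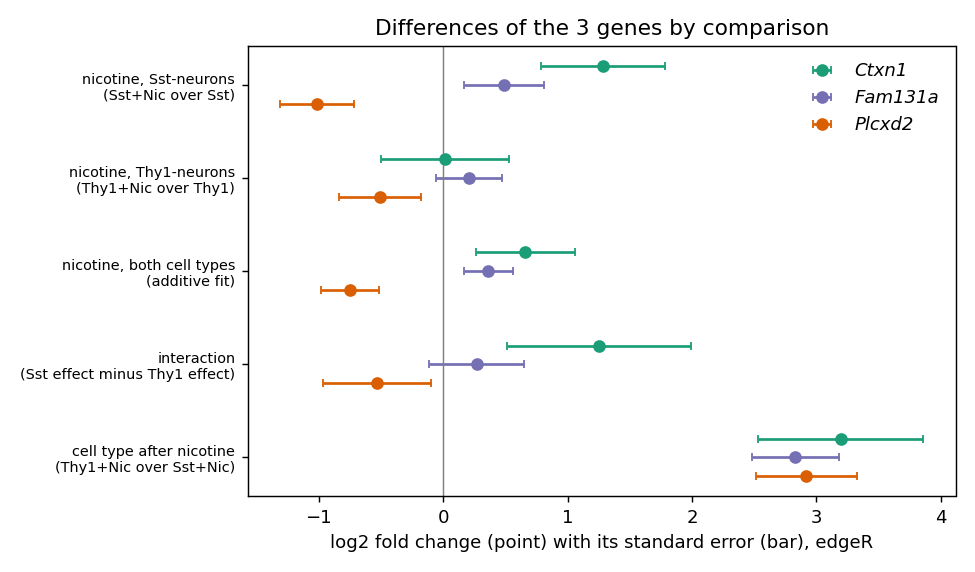
Log2 fold changes (points) with their standard errors (bars) from edgeR for the 3 genes in 5 comparisons. The cell type difference after nicotine lies between 2.83 and 3.20 for the 3 genes, and Plcxd2 lies below 0 in each of the nicotine comparisons.

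The ratio of the counts of a pair of these genes in a library does not depend on the library size, and it was computed after the levels had been seen. Plcxd2 had 1.16 to 1.58 fragments per Fam131a fragment in the 3 Sst libraries and 0.394 and 0.591 in the Sst+Nic libraries. It had 0.750 and 0.911 in the Thy1 libraries and 0.331 to 0.635 in the Thy1+Nic libraries. The nicotine libraries were below the saline libraries in both cell types, as they were for the ratio to Fam131a of 18 of the 461 other position-checked entries tested in both, Plcxd2 included (3.9%). Ctxn1 had 0.241 to 0.704 fragments per Plcxd2 fragment in Sst, 1.38 and 2.90 in Sst+Nic, 1.47 and 2.13 in Thy1 and 1.07 to 5.50 in Thy1+Nic. Both Sst+Nic libraries were above the Sst libraries in this ratio, as for 56% of 461 position-checked entries set against Plcxd2. Its ratio to Fam131a overlapped between Thy1 (1.34 and 1.60) and Thy1+Nic (0.590 to 1.82). In Sst it reached from 0.322 to 0.815 and in Sst+Nic it was 0.818 and 1.14, and the gap between the nearest libraries was within their counting error.

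**Figure D3:**
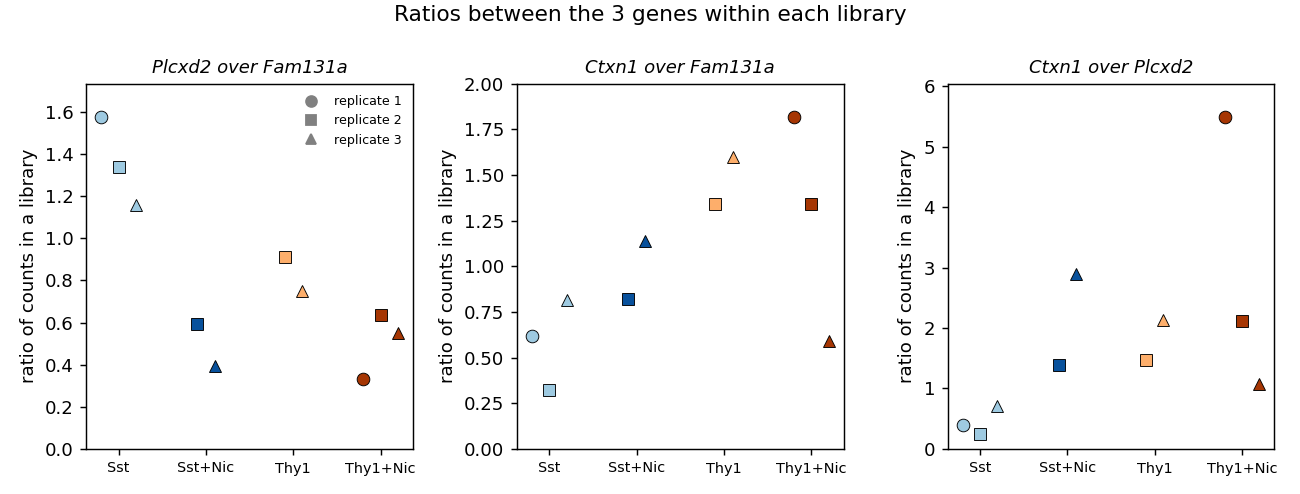
Ratio of the counts of each pair of genes in each of the 10 libraries by group, with the replicate as the shape of the point. The ratio of Plcxd2 to Fam131a lies between 1.16 and 1.58 in Sst and at most at 0.635 in the nicotine libraries of either cell type.

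Across the 10 libraries, the log2 levels of Ctxn1 and Fam131a had a Pearson r of 0.965, those of Fam131a and Plcxd2 of 0.892 and those of Ctxn1 and Plcxd2 of 0.815. These values are a description, since the libraries fall into 2 cell types that differ in all 3 genes and the levels of a library share its total. Among 547 other position-checked entries, those most like Ctxn1 were Rtn4r (r = 0.971), Fam131a, and Shisa9 (r = 0.951), an auxiliary protein of AMPA receptors. Those most like Fam131a were Rin1 (r = 0.982), Rtn4r (r = 0.979) and Dlg1 (r = 0.965). Those most like Plcxd2 were Bcl6 (r = 0.978), the mitochondrially encoded complex I subunit ND4 (r = 0.959) and Dlg1 (r = 0.955). Shisa9 had 0 counts in 4 of the libraries of Sst-neurons and 15.4 CPM in Sst+Nic replicate 3, against 57.4 to 147 CPM in Thy1-neurons. Dlg1 had 63.7 to 99.6 CPM in Sst-neurons and 273 to 457 CPM in Thy1-neurons.

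The 5 protein-coding entries on each side of a gene, 30 in all, were examined as its neighbours, and 26 held a count. Without nicotine, 1 of 19 neighbours tested was called, against 4.78% of the position-checked entries tested. This was Camk2n2, which was lower in Thy1. After nicotine, 0 of the 21 neighbours tested were called, against 1.74% of the position-checked entries tested. Of these neighbours, 12 were above and 9 below 0 on the log2 scale. Their median log2 fold change was 0.50, against 0.18 over the position-checked entries. The nearest tested neighbours of Ctxn1 had values of 1.39 (SE 0.59) for Snapc2, a subunit of the snRNA-activating complex, and 0.79 (SE 0.46) for Timm44, of the mitochondrial import machinery. Beside Fam131a, Camk2n2, an inhibitor of CaM kinase II, had 191 to 221 CPM in Sst, 122 and 116 CPM in Sst+Nic, and 4.67 to 20.2 CPM in the libraries of Thy1-neurons. Its log2 fold change between the cell types was -4.25 (SE 0.55, adjusted p = 0.0166) without nicotine. After nicotine it was -2.50 (SE 0.49, adjusted p = 0.0838), opposite in sign to that of Fam131a, and Ece2, an endothelin-converting enzyme in the same region, was at -1.83 (SE 0.62, adjusted p = 0.230). Camk2n2 was lower in both Sst+Nic libraries than in the 3 Sst libraries, with a log2 fold change of -1.04 (SE 0.28, adjusted p = 1.00). Chrd, which encodes chordin, an inhibitor of bone morphogenetic proteins, was at 3.29 (SE 1.13, adjusted p = 0.231). This was as large as the values of the 3 genes but with a larger error. Gm6551 was at 2.90 but did not pass the filter on low counts within Sst-neurons, and no test of it is given. Clcn2, a chloride channel gene that shares exonic bases with Fam131a, was at 0.98 (SE 0.54, adjusted p = 0.467) after nicotine. Beside Plcxd2, Tagln3, a neuronal cytoskeleton protein, was at 0.88 (SE 0.28, adjusted p = 0.222) and Abhd10 at -0.57 (SE 0.50, adjusted p = 0.739). Also beside Plcxd2, Tmprss7, a transmembrane serine protease, was at 3.86 and Gm4737 at -3.82. Tmprss7 did not pass the filter on low counts within Sst-neurons, nor Gm4737 within Thy1-neurons. Both entered through the group where they were high, and no test of them is given. Tmprss7 had 57.7 CPM in Thy1+Nic replicate 3 but 5.76 and 2.36 CPM in replicates 1 and 2, against 0.686 and 2.87 CPM in Sst+Nic, so that 1 library carried its value and the groups overlapped. Of the 21 other members listed for the cortexin, Fam131, Plcxd and phospholipase C families, 0 were position-checked, and they were not analysed here.

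**Figure D4:**
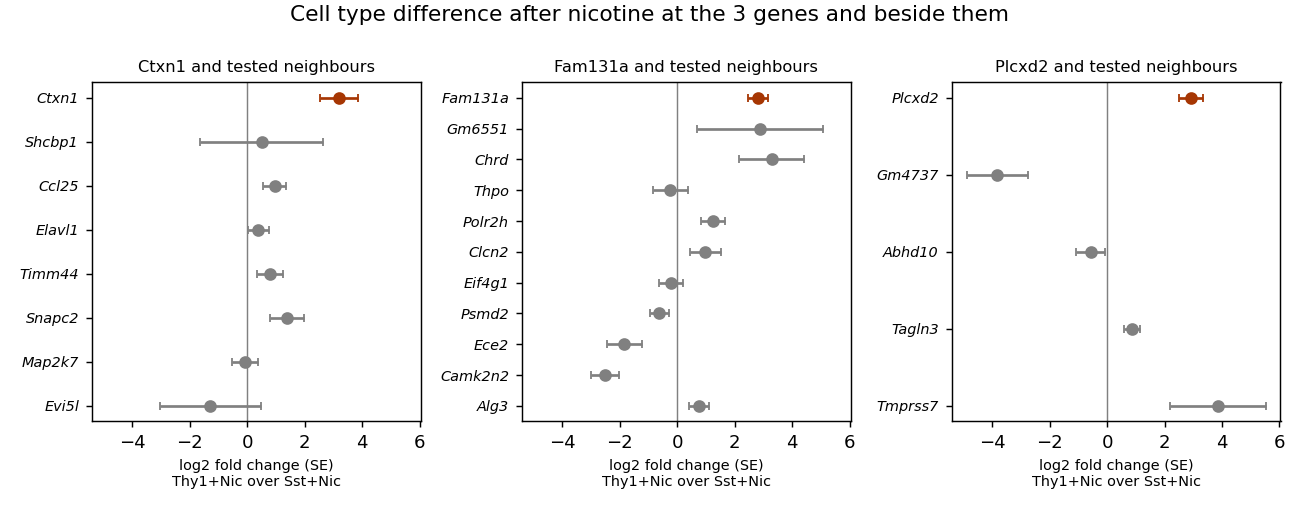
Log2 fold change of Thy1+Nic over Sst+Nic (points) with its standard error (bars) for each of the 3 genes and those of its 10 neighbours that were tested. The 3 genes lie between 2.83 and 3.20, while the neighbours lie on both sides of 0, with Chrd at 3.29 and Camk2n2 at -2.50 beside Fam131a. Tmprss7 and Gm4737 beside Plcxd2 and Gm6551 beside Fam131a passed the filter on low counts through the group where they were high.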

How the data were processed

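After trimming and alignment to the mouse genome, the authors deposited raw counts of fragments for each gene entry, without normalization; the submitters' processing notes name TopHat, HTSeq and GRCm38. The deposited table was used for 10 of the 12 libraries. The members and lists were chosen with earlier results of these data known. Symbols were placed with RefSeq positions (25701 entries). A stretch of a chromosome was position-checked while its genes held 0.3 to 3 times the study's own value for Sst or Thy1+Nic. At least 2 of them had to be within 1%, and the rule was set with the values in view. Other entries can hold only part of their reads and are not named. Groups were compared with edgeR 4.0.16 (R 4.3.3; quasi-likelihood test, TMM, filterByExpr with a minimum count of 10) over all entries, with Benjamini-Hochberg adjustment, and a call needed an absolute log2 fold change above 1 with an adjusted p under 0.05. The fits were tested on simulated data. Standard errors follow from the fold change and the test statistic. Each group had 3 mice in the study, and p-values measure the spread between the 2 or 3 libraries of a group used here. Whether each library came from 1 mouse is not stated. Named genes were the members, the 3 entries most like each over all libraries, the 3 entries after them in p order without nicotine, their neighbours and the listed markers. Alternatives used DESeq2 1.42.0 and limma 3.58.1 (voom). Levels used Python with scipy, a pseudocount of 1 and 3 counts as the limit that a count of 0 allows. The saline contrast of cell types was fitted over all entries, but no p-value of it is given for the members, because it chose them.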

Additional observations from a re-analysis of the deposited data

How the results depend on the processing

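The log2 fold changes of the 3 genes kept their sign in every alternative tried for nicotine in Sst-neurons and for the cell types after nicotine, and none of them was called in a nicotine comparison. After nicotine, 33 entries differed between the cell types, against 508 with DESeq2, 65 with voom and quality weights, 356 with no filter, 275 with at least 10 counts in a library, 105 with all libraries in 1 fit, 17 with position-checked entries alone and 0 to 56 without 1 library. Ctxn1 was called there at 3.19 (DESeq2), 3.20 (no filter), 3.21 (at least 10 counts in a library) and 3.20 (all libraries in 1 fit), and Plcxd2 was no longer called with table totals (2.40, adjusted p = 0.0556). Without 1 library, Fam131a lay between 2.57 and 3.18 and Plcxd2 between 2.59 and 3.11. Replicate numbers do not mark shared mice, and the deviations of libraries with the same number from their group means correlated between -0.19 and 0.03 over 351 entries. With the replicate number as a block, 9 entries were called after nicotine, neither Fam131a (2.79, adjusted p = 0.111) nor Plcxd2 (3.08, adjusted p = 0.0880) among them, and Ctxn1 in Thy1-neurons was at -0.57. For Ctxn1 in Thy1-neurons the sign also turned with voom (-0.16), table totals (-0.11) and position-checked entries alone (-0.11), and it lay between -0.39 and 0.40 without 1 library. The interaction of Fam131a lay between -0.034 and 0.54 without 1 library. For nicotine in Sst-neurons, 19 entries were called with DESeq2 and 8 with no filter. In Thy1-neurons 14 were called with DESeq2, 13 with no filter and 7 where 1 library needed 10 counts. For the interaction it was 11, 36 and 27, and 0 to 5 without 1 library. The cause of these differences was not tested. The common dispersion of the counts was 0.826 to 1.33 over the comparisons, and a count of 0 allowed between 0.615 and 1.03 CPM.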
